A study of Homo sapiens with 9 samples.

Results

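The messages described here encode the factors that shorten poly(A) tails, remove caps and degrade RNA from either end. They were measured in RNA immunoprecipitations (RIP) of the nuclear poly(A) binding protein, PABPN, and of the cytoplasmic poly(A) binding protein, PABPC. The 44 genes were listed by name and not by a cut-off on a measured value, but with earlier results of these data known. They comprised 7 subunits of the CCR4-NOT scaffold, its 4 catalytic subunits, 2 TOB adaptors, 3 other deadenylases and 5 terminal nucleotidyltransferases. The others were 9 core and 3 catalytic exosome subunits, 3 nuclear exosome cofactors, 2 5′ exonucleases and 6 decapping factors. All 44 were found in both deposited tables, among 51105 genes that the tables share. All 44 also passed the filter on low values, a mean above 50 normalized reads in both tables, as did 14581 genes in all.

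HEK293T is an established line of human embryonic kidney origin, here wildtype and carrying no knockdown. All 9 samples came from cells crosslinked with 0.1% formaldehyde for 10 min, and the 3 groups were Input (total lysate, no antibody), PABPN RIP and PABPC RIP, each with 3 biological replicates. The question was which RNAs each protein carries at steady state. Reads in introns and exons were counted together, so spliced and unspliced RNA of a gene cannot be told apart.

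Deadenylation usually begins the decay of a message. The PAN2-PAN3 complex and then the CCR4-NOT complex trim the poly(A) tail, after which the cap is removed by DCP2 and the body is degraded from the 5′ end by XRN1, or from the 3′ end by the exosome. In the nucleus, XRN2 and the exosome with its helicase MTREX degrade RNAs that are misprocessed or not exported. Terminal nucleotidyltransferases work in the opposite sense and add bases to RNA 3′ ends. Since poly(A) binding proteins coat the tails that these enzymes shorten or extend, the tables show on which protein the enzymes' own messages were found.

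The deposited means do not give values per library. For each gene, 1 table holds the mean over the 3 PABPN RIP and 3 Input libraries and the other the mean over the 3 PABPC RIP and the same 3 Input libraries. These are called the PABPN mean and the PABPC mean below, and both are in normalized reads on the scale of the Input libraries. The log2 ratio of the PABPC mean over the PABPN mean, the cross-table ratio, could be had for all 44 genes. As the Input part is common, the ratio has the sign of the difference between PABPC RIP and PABPN RIP and is smaller in size than the log2 ratio of the 2 RIPs themselves. It has no replicate error of its own and was not tested. For 7 of the 44 genes the reads of all 9 libraries could be solved as whole numbers from the printed digits of both means, and these genes were tested. The other 37 genes, among them all with a mean above 2500, were not. The libraries of a group are named a, b and c, as the means carry no replicate numbers, and p-values were adjusted over all genes tested.

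The sum of the means over all genes was 45.5 M normalized reads per library in the PABPN table and 51.0 M in the PABPC table on the same scale. Size factors of the 9 libraries lay between 0.67 and 1.13. Each lysate had been divided between the antibodies, and Input a, PABPN RIP c and PABPC RIP a deviated together from their group means, but the tests are unpaired. The RIPs were made from total lysate, not from separated fractions, and RNAs of known location were used to check the direction of the ratio. The nuclear RNA NEAT1 had a cross-table ratio of -1.78 and MALAT1, also nuclear, -0.49. The cytoplasmic messages GAPDH and ACTB had ratios of 1.69 and 1.61. RMRP and RN7SL1, which have no poly(A) tail, lay at 0.01 and 0.04. These ratios cannot show whether such RNAs were left out of the RIPs. Since the Input part is common, an RNA scarce in both RIPs lies near 0, as does one equal in both.

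Of these messages, 8 leaned to PABPC by more than 0.5 on the log2 scale and 6 leaned to PABPN by as much, while 30 lay between. Among all genes past the filter 26.6% had a ratio above 0.5 and 23.3% a ratio below -0.5, and among protein-coding genes the shares were 30% and 16.9%. Both 8 of 44 and 6 of 44 are smaller shares than these. The median ratio of the 44 genes was 0.04, against 0.06 over 12452 protein-coding genes and -0.04 over all genes. Ratios ran from -0.60 for CNOT4 to 1.59 for EXOSC4. All 4 catalytic subunits of CCR4-NOT and both TOB genes had positive ratios. All 3 other deadenylases, all 5 terminal nucleotidyltransferases, all 3 nuclear exosome cofactors and both 5′ exonucleases had negative ones. A negative ratio was found in 7564 of 14581 genes and in 5792 of 12452 protein-coding genes, and some of these values, such as MTREX at -0.06, were close to 0.

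**Figure D1:**
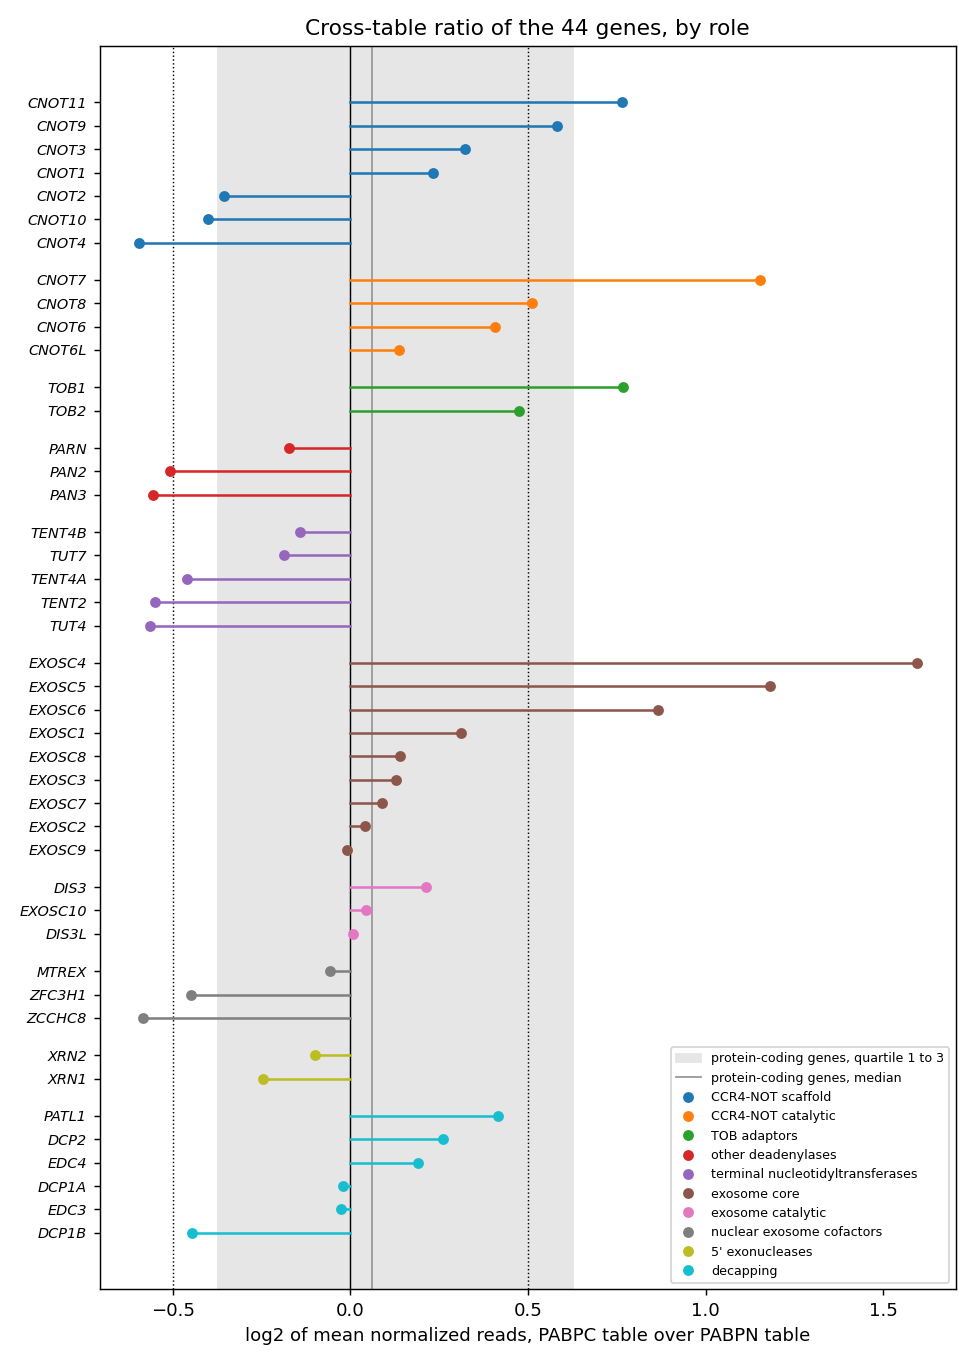
Each point is the cross-table ratio of 1 gene (horizontal axis, log2 of the PABPC mean over the PABPN mean), grouped and colored by role. The grey band spans the middle quartiles of protein-coding genes, from -0.37 to 0.63, the grey line is their median, and dotted lines mark -0.5 and 0.5. The exosome core reaches farthest to the right, with EXOSC4 at 1.59, while the terminal nucleotidyltransferases and the PAN2, PAN3 and PARN group lie left of 0.

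The annotated 3′ ends of genes with high and low ratios are given as 30 bases of hg38, with the hexamer AATAAA or ATTAAA in capitals. Bases run in the 5′ to 3′ direction of the message. These are ends of reference transcripts, and where the tails of the bound RNAs start was not measured. TOB1 holds ATTAAA at a pair of places, and the one at least 10 bases from the end is marked. The first 4 genes have the highest ratios after EXOSC4 and CNOT7 are set aside, and the last 4 have the lowest. Both genes set aside have AATAAA in the last 40 bases, so the windows shown understate that hexamer among high ratios.
EXOSC5: tggatgaatcAATAAAttaattcactttaa
EXOSC6: gaaAATAAActatttcattgttgtcagaaa
TOB1: gtttgtATTAAAattctttaaaattaaaaa
CNOT11: ttccATTAAAgttctttttatcaactgtta
CNOT4: ttaAATAAAacagaaaacttgatggtgaca
ZCCHC8: agttcaaAATAAAagcaatcctttacagtt
TUT4: agttAATAAAtctttttgacaagagttaaa
PAN3: gtatttttAATAAAgaattacagagataaa
These windows lie in the 3′ UTRs at chr19:41386374-41386403 (minus strand), chr16:70246778-70246807 (minus), chr17:50862223-50862252 (minus), chr2:101270287-101270316 (plus), chr7:135361795-135361824 (minus), chr12:122471600-122471629 (minus), chr1:52423275-52423304 (minus) and chr13:28295306-28295335 (plus), in the same order. In the last 40 bases of the reference transcript, searched on the transcript strand only, AATAAA was present in 28 of the 44 genes and, where it was absent, ATTAAA in 10, leaving 6 with neither. That is 63.6%, 22.7% and 13.6%, against 65.5%, 15.2% and 19.3% of 12374 protein-coding genes. All 6 genes with a ratio below -0.5 had AATAAA, as did 5 of the 8 above 0.5, which is a description of these letters and not of the use of the site.

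The largest ratios of single genes, those of EXOSC4 and EXOSC5, were in the exosome core. This core is a ring of subunits that binds and threads RNA to the nuclease below it. Of its 9 genes, 3 had a ratio above 0.5, none was below -0.5, and 8 were positive, with a median of 0.14. Among protein-coding genes 30% were above 0.5 and 16.9% below -0.5. Medians were higher for the TOB genes, 0.62, and for the catalytic and scaffold subunits of CCR4-NOT, 0.46 and 0.23. Of the core genes EXOSC9 alone was negative, at a ratio too close to 0 for its sign to be sure. It turns positive when the median of all genes is set to 0. The subunits of the hexameric ring all resemble the bacterial phosphorolytic nuclease RNase PH. Of their genes, EXOSC4, EXOSC5 and EXOSC6 lay at 1.59, 1.18 and 0.87. The other ring subunits, EXOSC7, EXOSC8 and EXOSC9, lay at 0.09, 0.14 and -0.01. The cap subunits EXOSC1, EXOSC2 and EXOSC3, which hold RNA-binding domains, lay at 0.31, 0.04 and 0.13. Subunits of 1 complex thus differed by up to 1.59 against -0.01 in the ratio.

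EXOSC4 could be followed library by library. Input libraries held 362, 460 and 503 normalized reads, PABPN RIP libraries 295, 280.0 and 217, and PABPC RIP libraries 1407, 1857 and 1802. All 3 PABPC RIP libraries were higher than all Input and PABPN RIP libraries, and all 3 PABPN RIP libraries were lower than all Input libraries. The group means were 442 ± 72.0 (SD, n = 3) in Input, 264 ± 41.6 in PABPN RIP and 1689 ± 245 in PABPC RIP. PABPC RIP exceeded PABPN RIP 6.39-fold, a log2 difference of 2.67 ± 0.16 (SE; limma, Benjamini-Hochberg (BH) adjusted p = 4.74e-08). Against Input, EXOSC4 was higher in PABPC RIP by 1.93 ± 0.16 on the log2 scale (limma, adjusted p = 6.83e-07) and lower in PABPN RIP by a log2 difference of -0.74 ± 0.16 (limma, adjusted p = 0.00342). The last call was lost without Input b, Input c or PABPN RIP c (limma, adjusted p = 0.0161, 0.0191 and 0.0105).

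EXOSC5 (hg38 chr19:41386371-41397362, minus strand) behaved alike in direction. Its normalized reads were 1074, 1136 and 1142 in Input, 872, 830.4 and 829 in PABPN RIP, and 3028, 3449 and 3521 in PABPC RIP. The 3 groups did not overlap, with PABPN RIP lowest and PABPC RIP highest. The log2 difference between PABPC RIP and PABPN RIP was 1.98 ± 0.08 (limma, adjusted p = 3.25e-09), a 3.95-fold difference of the means. PABPC RIP was above Input by 1.57 ± 0.08 (limma, adjusted p = 1.70e-08). The difference of PABPN RIP from Input, -0.40 ± 0.08 (limma, adjusted p = 0.00192), did not reach the cut-off of 0.5.

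EXOSC1 (chr10:97435909-97446017, minus strand) and EXOSC8 (chr13:36998816-37025881, plus strand) were the other core subunits with solved reads. The reads of EXOSC1 were the best of 14 solutions, with a weight of 0.998, and those of EXOSC8 the best of 3. For EXOSC1 the values were 1231, 1372 and 1433 in Input, 1638, 1778 and 1763 in PABPN RIP, and 2200.1, 2576 and 2616 in PABPC RIP. Both RIPs lay above Input without overlap, PABPC RIP the higher. The log2 difference between the RIPs was 0.51 ± 0.09 (limma, adjusted p = 3.07e-04), just past the cut-off. It was 0.47, 0.48 and 0.46 without PABPN RIP a, PABPC RIP b or PABPC RIP c, each below the cut-off. PABPC RIP exceeded Input by 0.87 ± 0.09 (limma, adjusted p = 4.17e-06) and PABPN RIP by 0.36 ± 0.09 (limma, adjusted p = 0.00755), the second below the cut-off.

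EXOSC8 differed in its spread. Its values were 1172, 981 and 999.9 in Input, 1273, 1347 and 2017 in PABPN RIP, and 1816, 1821 and 1796 in PABPC RIP. The PABPN RIP library c stood above the others of its group and above all PABPC RIP libraries, so the RIPs overlapped. Their log2 difference was 0.26 ± 0.15 (limma, adjusted p = 0.132). PABPC RIP was above Input by 0.79 ± 0.15 (limma, adjusted p = 5.10e-04), and PABPN RIP by 0.53 ± 0.15 (limma, adjusted p = 0.0139), which missed the threshold. Without PABPN RIP a the last difference was 0.65 (limma, adjusted p = 0.00738) and passed. Without PABPN RIP c it was 0.32 (limma, adjusted p = 0.0175), and the difference between the RIPs became 0.47 (limma, adjusted p = 8.75e-04), still below the cut-off of 0.5. With Input a, PABPN RIP c and PABPC RIP a fitted as 1 block, PABPN RIP against Input passed at the same 0.53 (limma, adjusted p = 9.96e-05).

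The other core genes were described by their means. EXOSC6 (chr16:70246778-70251940, minus strand), a gene without introns, had a PABPN mean of 1937 and a PABPC mean of 3529 normalized reads. The difference of the means corresponds to 3184 more normalized reads in PABPC RIP than in PABPN RIP. EXOSC2, EXOSC3, EXOSC7 and EXOSC9 had means that differed by less than 10% between the tables, at folds of 1.03, 1.09, 1.06 and 1.01.

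The catalytic exosome subunits were close to 0. EXOSC10, the mainly nuclear nuclease, had a ratio of 0.04, DIS3, the main processive nuclease of the nuclear exosome, 0.21, and DIS3L, its cytoplasmic paralog, 0.01. DIS3L (chr15:66293217-66333898, plus strand) was solved to 1982, 2010 and 2071 normalized reads in Input, 2136, 2043 and 2222 in PABPN RIP and 2241, 2129 and 2087 in PABPC RIP. These reads were the best of 49 solutions, whereas EXOSC4, EXOSC5, TOB1 and DCP1B each had only 1. The RIPs overlapped and their log2 difference was 0.01 ± 0.07 (limma, adjusted p = 0.868). PABPN RIP and PABPC RIP differed from Input by 0.08 ± 0.07 and 0.09 ± 0.07 (limma, adjusted p = 0.376 and 0.238).

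Of the nuclear exosome cofactors, 1 of 3 had a ratio below -0.5. ZCCHC8 (chr12:122471600-122500932, minus strand), the zinc knuckle subunit of the nuclear exosome targeting complex, had means of 3689 (PABPN) and 2460 (PABPC) and a ratio of -0.58. ZFC3H1, the scaffold of the poly(A) tail exosome targeting connection, had a ratio of -0.45 with means of 4916 and 3601. MTREX, the helicase both share, lay at -0.06 with means of 7826 and 7516. None of these 3 was tested.

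Within CCR4-NOT the catalytic subunits and the scaffold differed in their range. CNOT7, a deadenylase of the DEDD family, had the third-highest ratio of the 44 genes, 1.15, with means of 3277 (PABPN) and 7290 (PABPC). Its paralog CNOT8 (chr5:154857553-154876792, plus strand) lay at 0.51, with means of 2069 and 2948, the least ratio above 0.5. CNOT6 and CNOT6L, deadenylases of the other, EEP family, lay at 0.41 and 0.14. The differences of PABPC RIP over PABPN RIP that these means imply were 8027, 1757, 4464 and 718 normalized reads, in the same order.

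Scaffold and associated subunits lay on both sides. CNOT11 (chr2:101252886-101270316, plus strand), which forms a module with CNOT10, had means of 1837 (PABPN) and 3118 (PABPC) and a ratio of 0.76. CNOT10 itself lay at -0.40 with means of 5823 and 4409, so the 2 messages of that module had opposite signs. CNOT9 (chr2:218568580-218597080, plus strand), a subunit that contacts RNA-bound recruiters, lay at 0.58 with means of 5361 and 8025. CNOT1, the large scaffold, and CNOT3 had ratios of 0.23 and 0.32. CNOT2, the partner of CNOT3, lay at -0.36 with means of 8556 and 6682. CNOT4 (chr7:135361795-135510145, minus strand), a ubiquitin ligase that joins the complex loosely, had the lowest ratio of all 44, -0.60, with means of 5305 and 3510.

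TOB1 and TOB2 bind both CCR4-NOT and PABPC and so bring the deadenylases to tails. TOB1 (chr17:50862223-50867978, minus strand) had 562, 717 and 755 normalized reads in Input, 669, 639.5 and 496 in PABPN RIP, and 1098, 1841 and 1556 in PABPC RIP. All PABPC RIP libraries were above all others, while PABPN RIP and Input overlapped. The group means were 678 ± 102 (SD, n = 3), 601 ± 92.5 and 1498 ± 374. PABPC RIP exceeded PABPN RIP by 1.30 ± 0.19 on the log2 scale (limma, adjusted p = 6.15e-05) and Input by 1.12 ± 0.19 (limma, adjusted p = 2.00e-04). PABPN RIP differed from Input by -0.17 ± 0.19 (limma, adjusted p = 0.482). TOB2 had a cross-table ratio of 0.47, just under 0.5.

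The remaining deadenylases lay on the other side. PAN3 (chr13:28138506-28295335, plus strand), which binds PABPC and carries the nuclease PAN2 to the tail, had means of 9638 (PABPN) and 6562 (PABPC) and a ratio of -0.55. PAN2 (chr12:56316223-56334053, minus strand) had means of 2374 and 1671 and a ratio of -0.51, the nearest to the cut-off on that side. PARN, a poly(A) ribonuclease that also trims small nuclear RNAs, lay at -0.17. The messages of both PAN subunits thus differed by 0.05 in the ratio, while CNOT7 and CNOT8 differed by 0.64.

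The terminal nucleotidyltransferases all had negative ratios, with a median of -0.46. TUT4 (chr1:52408282-52553487, minus strand), which adds uridines to short tails and small RNAs, had means of 11657 (PABPN) and 7890 (PABPC) and a ratio of -0.56. Its paralog TUT7 lay at -0.19. TENT2 (chr5:79612120-79688246, plus strand), a cytoplasmic poly(A) polymerase, had means of 7118 and 4861 and a ratio of -0.55. TENT4A and TENT4B, which can build mixed tails, lay at -0.46 and -0.14. None of the 5 was tested. With the median of all genes set to 0 all 5 remained negative, but that median, -0.04, is too close to 0 for the shift to change any of these signs.

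The 5′ exonucleases were close to each other, at -0.25 for the cytoplasmic XRN1 and -0.10 for the nuclear XRN2. The decapping factors spread around 0. PATL1, which links deadenylation to decapping, lay at 0.42, DCP2, the decapping enzyme, at 0.26, and its enhancer EDC4 at 0.19. DCP1A, the activator of DCP2, and EDC3 lay at -0.02 and -0.03. Both turn positive when the median of all genes is set to 0.

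DCP1B, the paralog of DCP1A, had the lowest PABPC RIP level relative to Input among the 7 tested genes. At chr12:1946053-2004535 (minus strand), it had 1748, 1635 and 1609 normalized reads in Input, 1344, 1372 and 1497 in PABPN RIP, and 562, 652 and 552 in PABPC RIP. The 3 groups did not overlap, with PABPC RIP far below the others. Group means were 1664 ± 73.9 (SD, n = 3), 1404 ± 81.5 and 589 ± 54.9. PABPC RIP was lower than PABPN RIP by a log2 difference of -1.25 ± 0.09 (limma, adjusted p = 1.85e-07) and lower than Input by one of -1.50 ± 0.09 (limma, adjusted p = 5.32e-08). PABPN RIP differed from Input by -0.25 ± 0.09 (limma, adjusted p = 0.0464), which did not pass. The cross-table ratio of DCP1B, -0.45, was not beyond -0.5 although the 2 RIPs differed 2.38-fold, which shows how far the common Input part can compress a negative ratio.

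**Figure D2:**
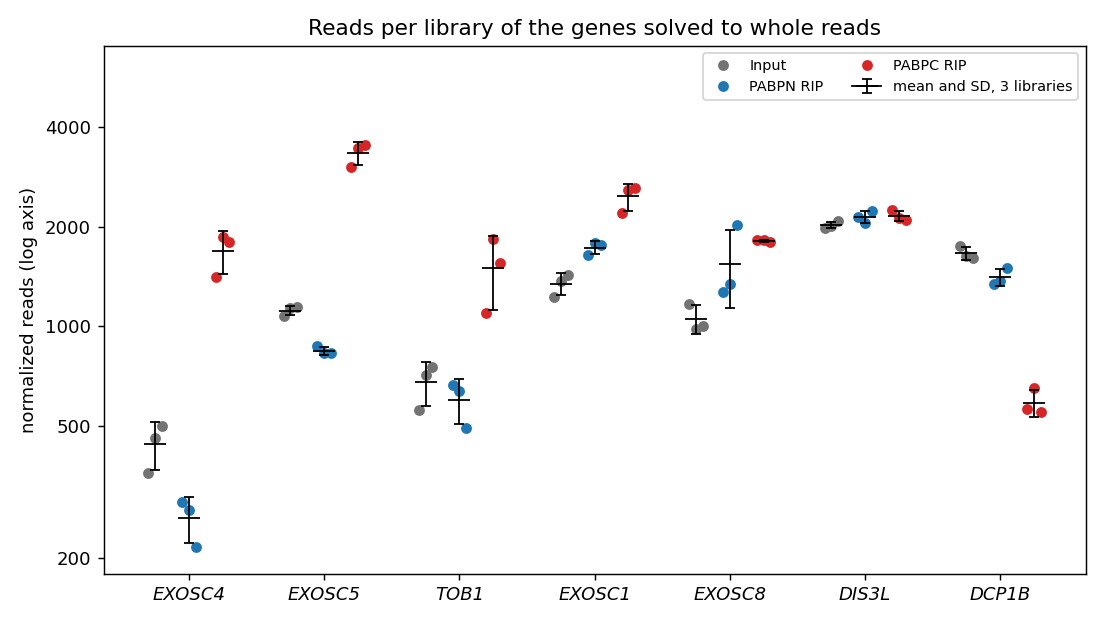
Normalized reads (log axis) of the 7 genes with solved reads, with 1 point per library and the mean and SD of 3 libraries per group. PABPC RIP lies above the other groups for EXOSC4, EXOSC5, TOB1 and EXOSC1, below them for DCP1B, and overlaps PABPN RIP for EXOSC8 and DIS3L.

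Of the 7 genes tested, 4 were higher in PABPC RIP than in PABPN RIP (EXOSC4, EXOSC5, TOB1 and EXOSC1) and 1 was lower (DCP1B). A call needed an adjusted p of at most 0.01 and a log2 difference beyond 0.5. Over the 8017 genes tested, 31.7% were higher and 39.2% lower by the same rule, so calls in this comparison were common and 5 of 7 is near that background. Against Input, 5 of the 7 were higher in PABPC RIP, where 38.0% of genes were, and 1 was lower, where 31.3% were. In PABPN RIP against Input 0 of the 7 were called higher by limma, where 19.7% of genes were, and 1 was called lower, EXOSC4, where 8.99% were, a call that was lost when any 1 of 3 libraries was left out. At an unadjusted limma p under 0.05, 2 of the 7, EXOSC1 and EXOSC8, were above Input in PABPN RIP. EXOSC4, EXOSC5 and DCP1B were below Input at that level. The share of all genes at that level was not counted. Without that background, these counts show nothing about the 7 genes as a set. With voom weights limma also called 0 of the 7 higher. Over all genes this comparison had 1577 higher and 721 lower calls, and 1293 and 1029 once each library was centred on its median. The comparisons of each RIP share the Input libraries, so their values are given side by side only.

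The ratio was set beside the test in the genes that had both. A ratio beyond 0.5 implies a difference between the RIPs beyond 0.5 in the same direction, so the counts show only how often the adjusted p passed as well. Of 1980 genes with a ratio above 0.5, 1971 were called higher in PABPC RIP (99.5%), and of 2164 with a ratio below -0.5, 2150 were called lower (99.4%). Solved genes favor a smaller spread, so these shares need not hold for the 37 untested genes. Among 3873 genes with a ratio between, 1559 were called (40.3%), so a ratio near 0 does not show that the RIPs are equal. In 2126 tested genes with a PABPN mean above 1000, the SE of the ratio from library spread had a median of 0.06, and 90% were below 0.11. Differences between neighbors in the order of the 44 ratios, such as CNOT8 at 0.51 and TOB2 at 0.47, or PAN3 and TENT2 at -0.55, were smaller than that error.

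**Figure D3:**
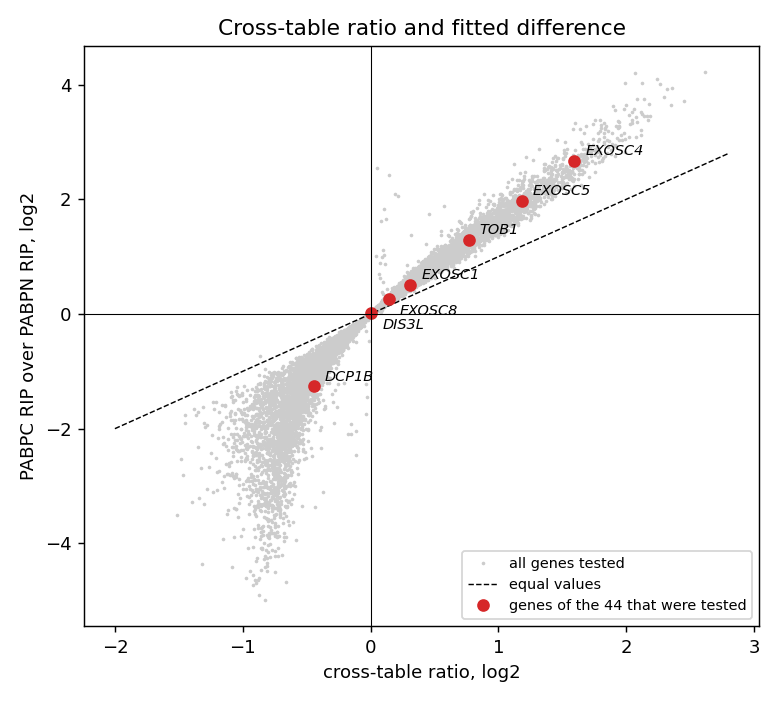
Each grey point is 1 of 8017 tested genes, with the cross-table ratio on the horizontal axis and the fitted log2 difference of PABPC RIP over PABPN RIP on the vertical axis. The 7 red points are the tested genes of the 44, from DCP1B at -0.45 and -1.25 to EXOSC4 at 1.59 and 2.67, and the dashed line marks equal values.

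Paralogs with related activity could be set side by side in the ratio. CNOT6 was 0.27 above CNOT6L, TOB1 0.29 above TOB2, DIS3 0.21 above DIS3L, and DCP1A 0.43 above DCP1B. TUT4 and TENT4A were lower than TUT7 and TENT4B, with differences of -0.38 and -0.32, and XRN1 was lower than XRN2 with one of -0.15. CNOT7 was 0.64 above CNOT8. These differences were not tested, and since the Input part of each mean differs between genes, their order need not be that of the differences between the RIPs.

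The ratio moved with gene structure. Across the 44 genes, the Spearman correlation of the ratio was -0.65 with the annotated gene span, -0.57 with the length of the coding sequence and 0.01 with the length of the 3′ UTR. Over protein-coding genes these values were -0.61 (n = 12450), -0.49 and -0.16 (n = 12374 for both). The correlations are across genes of the same libraries, which are not independent replicates, and they are given as descriptions. The 8 genes with a ratio above 0.5 had a median span of 14.2 kb and a median of 6.5 exons. The 6 below -0.5 had medians of 111 kb and 17 exons. EXOSC4 spans 2.001 kb, EXOSC6 5.16 kb and TOB1 5.76 kb, whereas CNOT4, TUT4 and PAN3 span 148, 145 and 157 kb. PAN2, at 17.8 kb, and ZCCHC8, at 29.3 kb, were short genes with negative ratios, and CNOT1, at 109.9 kb, was a long gene with a positive one. The part of intronic reads in these ratios was not tested.

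**Figure D4:**
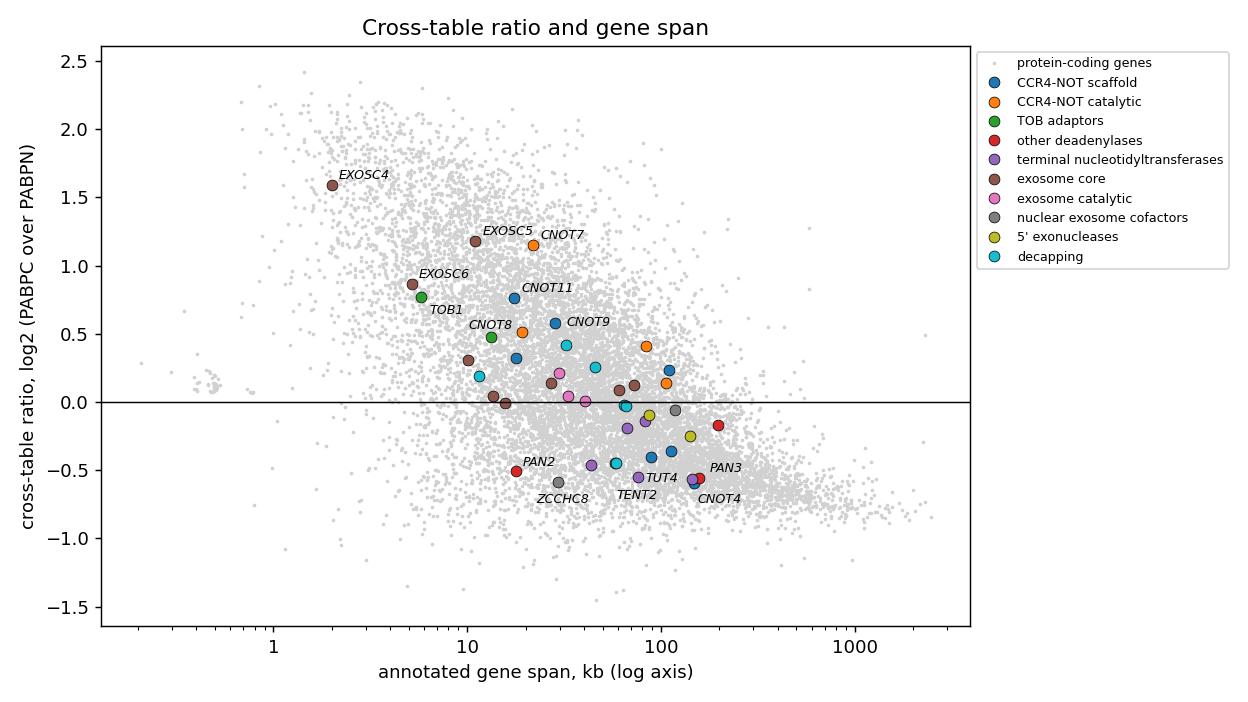
Cross-table ratio (vertical axis, log2) against annotated gene span in kb (log axis) for protein-coding genes in grey and the 44 genes colored by role, with labels for those beyond 0.5 in either direction. EXOSC4, EXOSC6 and TOB1 sit at the upper left with spans of 2.001, 5.16 and 5.76 kb, and CNOT4, TUT4 and PAN3 at the lower right with spans of 148, 145 and 157 kb.

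Other genes of the pathway gave a setting for these values. Further lists of decay factors held 54 genes past the filter, with a median ratio of 0.13. Of these, 18 had a ratio above 0.5 and 4 below -0.5. Among protein-coding genes past the filter 30% were above and 16.9% below, and among all genes 26.6% and 23.3%. The same shares are the background for the counts of each list below. In the LSM and P-body list, 8 of 12 genes were above 0.5 and none was below -0.5, with a median of 0.98. LSM4 and LSM2, subunits of the ring that binds the ends of deadenylated messages, were highest at 1.76 and 1.73. ZC3H3 and ZCCHC7, the first a zinc finger cofactor and the second a subunit of the TRAMP complex, were lowest at -0.88 and -0.81, both in the list of exosome cofactors outside the 44, where 2 of 12 were above 0.5 and 3 below -0.5. Among the deadenylase recruiters 3 of 13 were above 0.5, among other nucleases and cap enzymes 4 of 12 were above and 1 below, and among the SKI and surveillance factors 1 of 5 was above. Of the 54 genes, 20 were solved and tested. In PABPC RIP against PABPN RIP, 15 of these were higher, 0 were lower and 5 were not called. Of all genes tested 31.7% were higher and 39.2% lower, but that background holds every biotype and many genes of lower mean. With baseMean above 200, 2006 of 5398 genes were higher and 1771 lower. The lists were also chosen with earlier results of these data known. Solved genes are those with lower means, and their counts do not stand for the whole lists.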

How the data were processed

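Per the labels and methods, the authors aligned ribodepleted, stranded, single-end 75 nt reads to hg38 with STAR, counted introns and exons together with featureCounts 2.0.2, and compared each RIP with Input in DESeq2. The 2 deposited tables hold, per gene, the signal baseMean (the mean of reads over size factors in 6 libraries), a gene length, and 5 columns of the authors' own comparison (fold change, its error, statistic, p and adjusted p), which were not used. The most frequent low values gave what 1 read is worth in each library. Libraries whose values recur in both tables are the Input libraries, and the others are the RIP of their table. Whole reads were solved from the 15 printed digits of both means and accepted at a weight of at least 0.99 under the observed spread of libraries, for 12092 of 12715 genes with means from 10 to 2500. Above about 1000 reads several solutions compete, genes of large spread are solved less often, and a wrong solution can pass. limma 3.58.1 (R 4.3.3) was run on log2(reads / size factor + 1) of the 9 libraries with a two-sided test. BH adjustment was over the 8017 solved genes with baseMean above 50 in both tables, out of 14581 genes past that filter. The procedure was tested on simulated data. Positions and 3′ ends came from GENCODE release 44 (MANE Select) and hg38. All 44 genes were named, with full values for those called between the RIPs, with a ratio beyond 0.5 or nearest 0. Of other lists the 2 most extreme genes in each direction were named. Genes and lists were chosen with earlier results of these data known. Settings varied were the centring, pseudocount, filter, weighting, cut-off, solution weight and each library left out.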

Additional observations from a re-analysis of the deposited data

How the results depend on the processing

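Each called difference of the 7 tested genes kept its direction under every alternative tried. These were centring on the median, a pseudocount of 5, baseMean above 200 or above 10 and voom weights. A log2 cut-off of 1, a stricter solution weight (under which EXOSC1 was not solved) and leaving out each library were also tried. The filters, cut-off and solution weight do not alter a fitted difference, so they could not change a direction. With a cut-off of 1, EXOSC1 lost its call between the RIPs, which left 3 genes higher in PABPC RIP. It also lost that call without PABPN RIP a, PABPC RIP b or PABPC RIP c. A weight of at least 0.95 was added after seeing the data. With it EXOSC3 and PATL1 were tested too, and 5 of 9 genes were higher in PABPC RIP than in PABPN RIP, PATL1 among them, and 7 of 9 higher than in Input. Leaving out 1 library at a time, the genes higher in PABPC RIP than in PABPN RIP numbered 3 to 4 and those lower 1. In PABPN RIP against Input 0 to 1 were higher and 0 to 1 lower, EXOSC4 losing its call without Input b, Input c or PABPN RIP c (adjusted p from 0.0105 to 0.0191). In PABPC RIP against Input 5 were higher and 1 lower each time. Centring on the median gave 2 genes lower in PABPN RIP than in Input, EXOSC5 being the second. With a cut-off of 1, 0 genes were lower in that comparison, 3 were higher in PABPC RIP than in Input, and 3 and 0 of the 44 cross-table ratios lay beyond it, CNOT7, EXOSC4 and EXOSC5. Setting the median of all genes to 0 gave 9 ratios above 0.5 and 5 below -0.5 and moved their median to 0.08. Over all genes, a cut-off of 1 left 601 of 1577 higher and 172 of 721 lower calls in PABPN RIP against Input, 1991 of 3043 higher calls in PABPC RIP against Input, and 1776 of 3883 and 172 of 3399 cross-table ratios above and below. With baseMean above 10, the lower calls numbered 5015 in place of 3140 between the RIPs and 4079 in place of 2513 in PABPC RIP against Input, among 12092 in place of 8017 genes. No paired analysis was possible because the deposited means carry no replicate numbers. Deviations from the group means of 1146 genes did run together in Input a, PABPN RIP c and PABPC RIP a (correlations of 0.71, 0.78 and 0.49). A replicate block that takes these 3 libraries as 1 lysate, added after seeing the data and resting on them rather than on labels, gave 1 gene higher in PABPN RIP than in Input, EXOSC8, in place of 0, and changed no other call of the 7 genes.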
